A study of Mus musculus with 4 samples.

Results

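Fatty acid oxidation genes and their PPAR regulators were compared between Control and Wnt3A arrays. The cells were OP9, a stromal line from mouse bone marrow. The set held 33 of the 27597 named genes on the array, taken by symbol as every probe whose gene name, or current symbol through its transcript accession, was on the list, and 49 of the 41174 probes on the array matched them. Of these genes 32 entered the test, among 22859 genes tested in all, and Ehhadh did not. Control cells (2 arrays) carried the empty LZRS-IRES-GFP retroviral vector, and Wnt3A cells (2 arrays) carried that vector with the Wnt3A gene inserted, in both cases by transfection. All 4 samples shared the line, the vector, a serum-containing medium and a global PCR amplification of the RNA before hybridisation to 1-colour Agilent arrays. Replicates are labelled as separate, with no word on whether each had its own culture, and p-values therefore reflect only sample-to-sample spread, which may be technical. How transfected cells were selected is not in the labels.

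Long-chain fatty acids are joined to coenzyme A by acyl-CoA synthetases and carried into mitochondria by the carnitine shuttle. There each turn of beta-oxidation shortens the chain through a dehydrogenation, a hydration, a second dehydrogenation and a thiolytic cut. Electrons from the first step pass through the electron transfer flavoprotein to the respiratory chain. The nuclear receptors PPAR alpha and PPAR delta, with coactivators of the PGC-1 family, are known to drive transcription of these enzymes, and OP9 cells are known to turn readily into adipocytes, a cell type rich in such enzymes.

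1 gene of the set passed the test, and it rose. Pdk4 encodes a kinase that shuts off pyruvate dehydrogenase and so shifts mitochondria from glucose to fat as fuel. From dim Control readings, Pdk4 was 19.5-fold higher in the Wnt3A arrays. The enzymes of fatty acid oxidation themselves leaned the other way without any single one passing. Acadm, Acaa2, Cpt1a, Etfa and Acadl were 2.18-fold to 3.29-fold lower, and the 95% interval of the change by the brightest probe of each gene excluded 0 only for these 5 and Pdk4. Among the other probes it also excluded 0 for 1 probe each of Cpt1a, Acsl1 and Acsl4 (lower) and of Hadha (higher). The Hadha probe was below the detection floor on both Control arrays and was kept through the Wnt3A arrays alone, so its interval rests on undetected Control values. Of the 32 tested genes 24 (75%) were lower and 8 higher, against 51% lower among all genes tested, and the median log2 change was -0.38 against -0.013. The median was -0.25 without Wnt3A replicate 2, and -0.080 and -0.064 by 2 ways of processing the scanner files. By the first of these, 12 of 29 members had the opposite sign on the same probes. A change of -1 or lower was measured in 8 members and in 9.83% of all genes, and one of 1 or higher in 1 member and in 10.2%.

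Values below are intensities of the deposited table, in which 1 is the median spot of an array, and log2 changes after the 75th percentile of each array was set to a common level, given with the moderated standard error (SE, 2 arrays per group). Called means an adjusted p under 0.05 in limma with Benjamini-Hochberg adjustment over all tested probes. In limma 0.402% of all tested genes rose and 0.241% fell by that rule, against 1 and 0 of the 32 members. At an unadjusted p under 0.05 the background was 6.31% higher and 6.34% lower, and the members gave 1 higher (Pdk4) and 5 lower (15.6%). Both Wnt3A arrays lay below both Control arrays in 23.7% of all tested genes and in 13 members (40.6%), and above them in 21.5% and in 2 members (6.25%). Groups without overlap in either direction made up 45.2% of all genes, and 17 of the 32 members overlapped. The number of arrays limits the precision: the 95% interval of a member's change reached a median of 1.06 (log2) to either side, so a 2-fold change lay within the error of a typical member. No exact test of 2 against 2 arrays can reach a two-sided p below 0.333.

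The table and the scanner files deposited with it did not match each other well. By rank, each of the 4 columns was nearest to the scanner file of Control replicate 2 (Spearman's rho 0.826 to 0.845 across spots, which are not independent replicates), while rho with the file of the same sample was 0.637 for Control replicate 1 and 0.684 and 0.746 for the Wnt3A arrays. Every value below is from the table unless the scanner files are named, and which source holds the labelled arrays could not be settled. All 10 stromal marker genes were above the detection floor on every array, as were 9 of 9 blood cell, 8 of 8 muscle and 12 of 13 adipocyte markers. Across the 4 arrays 80.7% to 83.7% of all spots exceeded that floor, so these counts do not tell cell types apart. The single Wnt3a probe read 0.0151 and 0.0134 in Control and 0.0112 and 0.123 in Wnt3A, against floors of 0.0533 to 0.0729. It was thus detected on 1 array. Whether the insert contains the probed stretch is not stated in the labels.

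**Figure D1:**
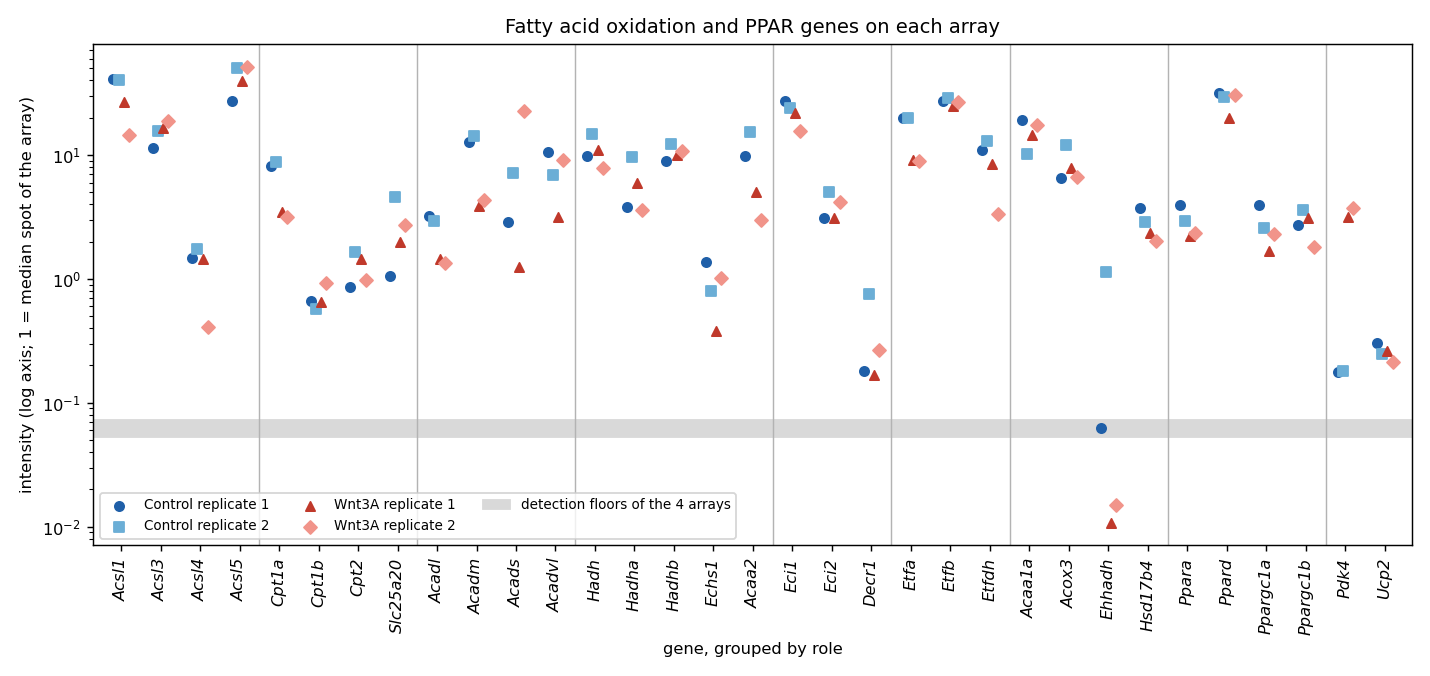
Intensity of each of the 33 genes on each of the 4 arrays (log axis, 1 is the median spot of the array), by the probe with the highest mean, with vertical lines between roles and the range of the detection floors shaded. Pdk4 sits at 0.177 and 0.179 in Control and at 3.18 and 3.71 in Wnt3A, while Ehhadh is above the floor on 1 Control array alone.

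Pdk4 was read by 1 probe on chromosome 6, 5433441 to 5433500 on build mm8. It read 0.177 and 0.179 in Control and 3.18 and 3.71 in Wnt3A. The Control readings were dim, against floors of 0.0702 and 0.0631 on those arrays, so the size of the fold rests on values near the floor. Both Wnt3A values lay far above both Control values, and replicates differed little within either group. The change was 4.28 ± 0.30 (log2, SE, 95% interval 3.46 to 5.10), with an adjusted p of 0.0319 in limma. With any 1 array left out, which leaves 1 array in a group, the call was lost, as was every other call. The change then stayed between 4.19 and 4.38. The call was also lost with no filter on dim probes (adjusted p 0.0530 in limma). It held with the table as deposited and after quantile normalization (0.0319 in each). In the scanner files the probe was well above background on 1 Control and 1 Wnt3A array, so it was not tested there, and its measured difference had the opposite sign (-1.44, log2).

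The upstream sequence of Pdk4 is shown beside those of Acadm and Cpt1a, the 2 oxidation genes with the smallest p, since PPAR receptors, as dimers with RXR, bind direct repeats of the letters AGGTCA. Each line gives the 250 bases before the gene's start, 5′ to 3′ on the gene's strand, from RefSeq on build GRCm38.p6, and capitals mark AGGTCA on either strand. They lie at chr6:5496279-5496528 (minus strand), chr3:153944644-153944893 (minus) and chr19:3323051-3323300 (plus).
Pdk4: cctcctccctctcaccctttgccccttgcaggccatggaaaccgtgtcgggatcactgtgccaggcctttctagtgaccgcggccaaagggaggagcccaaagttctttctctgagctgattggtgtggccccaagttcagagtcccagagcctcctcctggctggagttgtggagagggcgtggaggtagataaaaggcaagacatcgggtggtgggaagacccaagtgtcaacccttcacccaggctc
Acadm: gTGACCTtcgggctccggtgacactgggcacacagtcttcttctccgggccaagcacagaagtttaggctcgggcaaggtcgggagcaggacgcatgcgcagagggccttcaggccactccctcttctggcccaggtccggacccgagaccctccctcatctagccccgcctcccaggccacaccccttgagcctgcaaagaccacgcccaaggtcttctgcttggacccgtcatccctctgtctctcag
Cpt1a: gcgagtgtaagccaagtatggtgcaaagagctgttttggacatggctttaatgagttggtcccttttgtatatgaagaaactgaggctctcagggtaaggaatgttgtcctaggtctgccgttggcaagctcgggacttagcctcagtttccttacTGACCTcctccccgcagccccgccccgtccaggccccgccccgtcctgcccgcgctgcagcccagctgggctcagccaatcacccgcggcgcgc
These letters stood 249 bases before the start in Acadm and 94 bases before it in Cpt1a, both times on the opposite strand, and are not in the Pdk4 window. RefSeq windows were held for 28 of the 33 members, and 4 of them (Acadm, Cpt1a, Acadvl and Echs1) contained them, against 13.8% of all 27025 windows of this length. The direct repeat with 1 base between (AGGTCANAGGTCA) was in 0 member windows and in 0.037% of all. The letters TCAAGGTCA, TGTTTAC and CTTTGAT, associated with ERR, FOXO and TCF/LEF factors, were likewise in 0 member windows, against 0.366%, 3.09% and 3.23% of all windows. TCAAGGTCA contains AGGTCA. A match is a description of the letters and not a binding site.

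The receptors and coactivators were all measured slightly lower in Wnt3A, and none passed. Ppara, the PPAR form of oxidative tissues, read 3.93 and 2.92 in Control and 2.22 and 2.35 in Wnt3A, which did not overlap (-0.56 ± 0.35, adjusted p 0.584 in limma). Ppard, the broadly expressed form, read 31.4 and 29.2 against 20.0 and 30.5, so the groups overlapped (-0.28 ± 0.36). Ppargc1a, which encodes the coactivator PGC-1 alpha, read 3.96 and 2.57 in Control and 1.67 and 2.31 in Wnt3A. The groups did not overlap for either of its probes, at -0.69 ± 0.41 and -1.34 ± 0.63. The second probe was dim, at 0.330 and 0.145 in Control and 0.119 and 0.0622 in Wnt3A, with Wnt3A replicate 2 below its floor. Ppargc1b, which encodes PGC-1 beta, was lower by all 3 probes (-0.39, -0.96 and -1.52), and 2 of the 3 did not overlap between groups. Wnt3A replicate 2 gave the lowest reading of all 3 of these probes. By the brightest probe, 2 of the 4 receptor and coactivator genes were lower without overlap, against 23.7% of all tested genes.

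Among the acyl-CoA synthetases, which activate fatty acids, the isoforms differed in sign. Acsl1, the main form of adipocytes and of oxidative tissue, read 41.4 and 40.7 in Control and 26.6 and 14.6 in Wnt3A. All 3 of its probes were lower without overlap (-1.05 ± 0.43, -0.78 ± 0.38 and -1.11 ± 0.32), with adjusted p from 0.286 to 0.489 in limma. Acsl4, which prefers arachidonic acid, read 1.47 and 1.75 against 1.45 and 0.411, and its dimmer probe read 0.410 and 0.597 against 0.107 and 0.138. Its changes were -1.04 ± 0.70 and -2.02 ± 0.35, the second with an adjusted p of 0.131. Acsl3, which acts on lipid droplets, read 11.5 and 15.6 against 16.6 and 18.7 (0.41 ± 0.32, adjusted p 0.667 in limma). By the brightest probe of each gene, Acsl3 was the only member beside Pdk4 with both Wnt3A arrays above both Control arrays. Acsl5 overlapped between groups (0.28 ± 0.41).

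Of the carnitine shuttle, Cpt1a alone lay apart between the groups. Cpt1a, the liver-type carnitine palmitoyltransferase and the entry step of mitochondrial oxidation, read 8.15 and 8.84 in Control and 3.44 and 3.15 in Wnt3A (chromosome 19, 3384629 to 3384688 on mm8). Replicates were close and the groups did not overlap. The change was -1.36 ± 0.30 (log2, 95% interval -2.17 to -0.54), with an adjusted p of 0.190 in limma. Its other probe read 2.97 and 4.33 against 1.23 and 0.748, a change of -1.89 ± 0.42 (adjusted p 0.188). Cpt1b, the muscle-type isoform, overlapped between groups by both probes (0.35 ± 0.35 and 0.17 ± 0.46). Cpt2, which releases acyl-CoA inside the mitochondrion, changed by 0.021 ± 0.45. Slc25a20, the carrier that exchanges acylcarnitine for carnitine, read 1.06 and 4.58 in Control, a wider gap than between the groups (0.095 ± 0.76).

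The acyl-CoA dehydrogenases carry out the first step of each turn and differ in the chain length they take. Acadm, the medium-chain enzyme, read 12.7 and 14.3 in Control and 3.85 and 4.31 in Wnt3A (chromosome 3, 153860092 to 153860151). The groups were well apart and the replicates close. The change of -1.72 ± 0.30 (95% interval -2.52 to -0.91) was the lowest among the brightest probes of the 32 genes, and its adjusted p was 0.132 in limma. Acadl, the long-chain enzyme, read 3.20 and 2.96 against 1.45 and 1.35 (chromosome 1, 66764307 to 66764366), a change of -1.13 ± 0.31 with an adjusted p of 0.256. Acads, the short-chain enzyme, read 2.86 and 7.18 in Control and 1.24 and 22.5 in Wnt3A. The Wnt3A arrays were thus its lowest and its highest, and the interval of its change ran from -3.84 to 4.31. Acadvl, the very-long-chain enzyme of the inner membrane, read 10.6 and 6.88 against 3.13 and 9.14 and overlapped (-0.66 ± 0.64).

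Of the later steps, Acaa2 stood apart. Acaa2, a mitochondrial thiolase, read 9.80 and 15.4 in Control and 5.01 and 2.99 in Wnt3A, without overlap (-1.66 ± 0.44, adjusted p 0.247 in limma). Hadha and Hadhb encode both subunits of the trifunctional protein, which acts on long chains. Hadhb read 9.03 and 12.2 against 9.97 and 10.8, so its groups overlapped, and its 95% interval ran from -0.86 to 0.85. Hadha by its brightest probe read 3.80 and 9.73 against 5.997 and 3.60 and also overlapped (-0.38 ± 0.58). Its other kept probe, below the floor on both Control arrays, was higher without overlap (3.20 ± 0.60, adjusted p 0.148 in limma), and with both probes averaged the change of Hadha was 1.41. Hadh, the short-chain hydroxyacyl-CoA dehydrogenase (-0.37 ± 0.38), and Echs1, the short-chain hydratase (-0.74 ± 0.64), overlapped as well.

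The enzymes that handle double bonds, Eci1, Eci2 and Decr1, changed by -0.44, -0.12 and -0.79. Only Eci1 did not overlap, at 27.1 and 23.8 against 21.9 and 15.7. Electron transfer genes were lower in all 3 cases without overlap by their brightest probes. Of all tested genes 23.7% were lower without overlap. Etfa, the alpha subunit of the flavoprotein, read 20.0 and 19.9 in Control and 9.19 and 8.95 in Wnt3A (-1.13 ± 0.30, adjusted p 0.246 in limma). Etfb, its partner subunit, read 27.5 and 28.7 against 24.8 and 26.8, a change of -0.11 ± 0.30, and the difference between both subunits was not tested. Etfdh, the oxidoreductase that passes the electrons to ubiquinone, read 11.01 and 13.01 against 8.54 and 3.34 (-1.15 ± 0.56, adjusted p 0.484). Its other probe overlapped between groups and was not tested, as it exceeded the floor on only 1 Control and 1 Wnt3A array.

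Peroxisomes oxidise very long and branched chains. Hsd17b4, the peroxisomal multifunctional enzyme, read 3.73 and 2.89 in Control and 2.35 and 2.02 in Wnt3A, without overlap (-0.58 ± 0.35, adjusted p 0.572 in limma). Acox3, an oxidase of branched chains (-0.28 ± 0.41), and Acaa1a, a peroxisomal thiolase (0.18 ± 0.46), overlapped, and the 3 probes of Acaa1a had different signs. Ehhadh, the other bifunctional enzyme, read 0.0627 and 1.14 in Control and 0.0108 and 0.0148 in Wnt3A. Only Control replicate 2 was above its floor, so the gene was not tested. Ucp2, an inner-membrane carrier of the uncoupling protein family, overlapped by its brightest probe, at 0.305 and 0.249 against 0.260 and 0.214 (-0.22 ± 0.34). A dimmer probe also overlapped (-0.39 ± 0.43). The dimmest was higher without overlap, at 0.0935 and 0.0358 against 0.120 and 0.118 (1.05 ± 0.59), with Control replicate 2 below its floor.

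**Figure D2:**
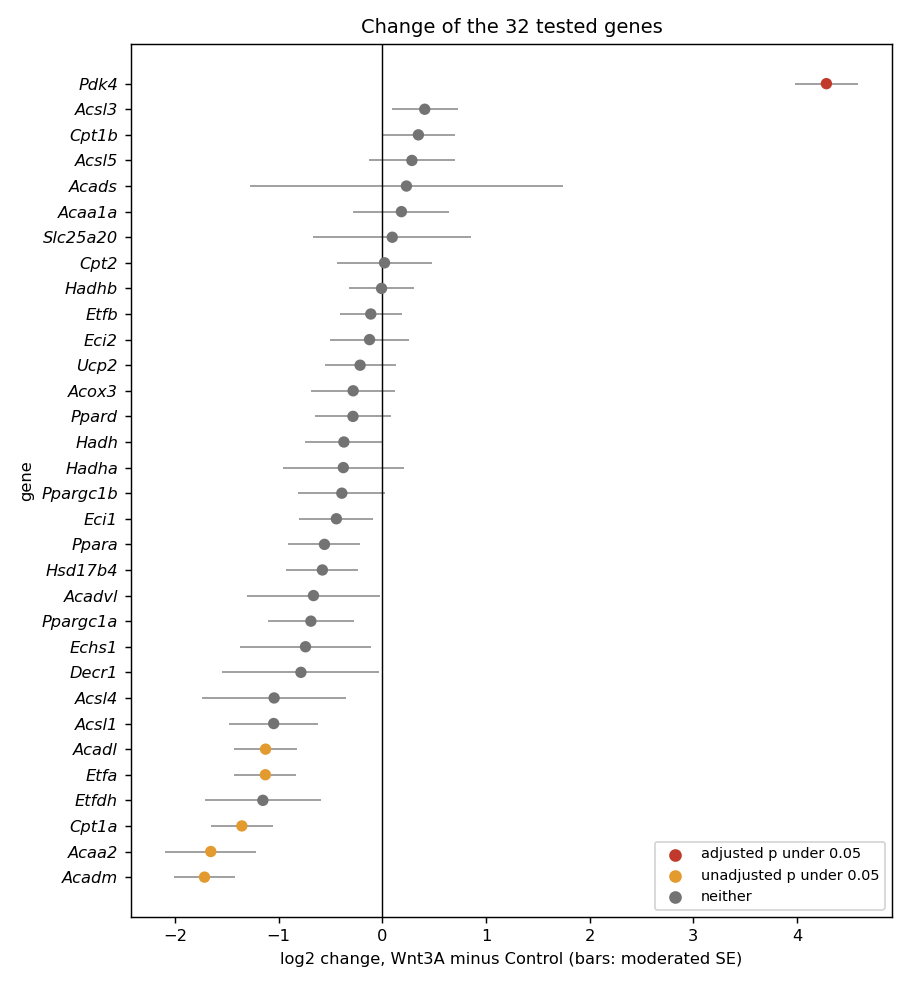
Log2 change (Wnt3A minus Control) of the 32 tested genes, ordered by size, with moderated standard errors as bars and colours for the unadjusted and adjusted p in limma. Pdk4 at 4.28 is alone past the adjusted threshold, and Acadm, Acaa2, Cpt1a, Etfa and Acadl have an unadjusted p under 0.05 on the lower side.

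The median of the members lay 0.44 below the Control mean in Wnt3A replicate 2 and 0.25 below it in Wnt3A replicate 1. Over all tested genes the same medians were -0.0032 and -0.027. Without Wnt3A replicate 2 the median change of the members was -0.25, and without Wnt3A replicate 1 it was -0.44.

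**Figure D3:**
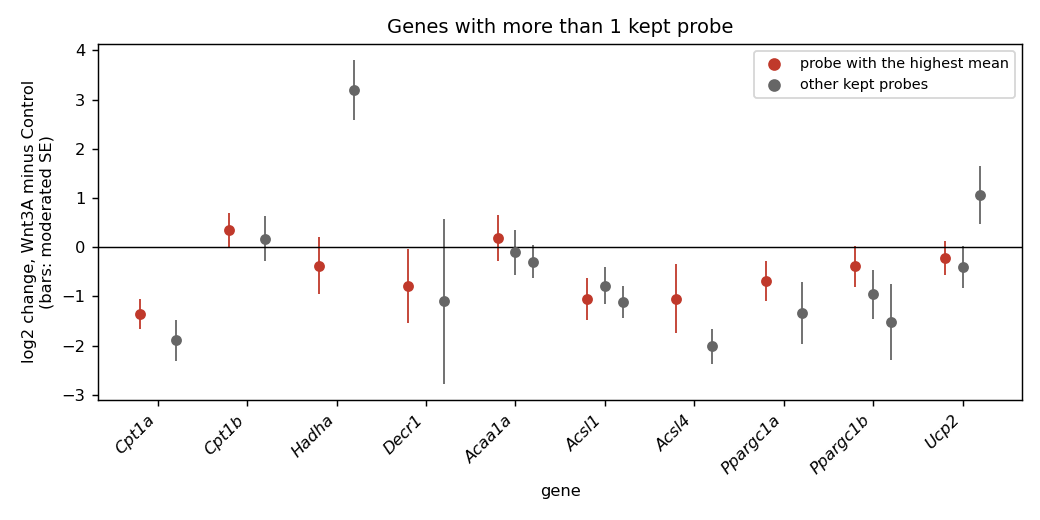
Log2 change (Wnt3A minus Control, moderated SE as bars) of every kept probe of the 10 genes with more than 1 kept probe, with the brightest probe in red. The probes of 7 genes lie on 1 side of 0, among them all probes of Cpt1a, Acsl1, Acsl4, Ppargc1a and Ppargc1b, and those of Hadha, Acaa1a and Ucp2 lie on both sides.

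Of 120 related genes tested, 0 rose and 3 fell (2.50%) in limma, against 0.402% and 0.241% of all tested genes. At an unadjusted p under 0.05, 6 were higher and 14 lower (11.7%), against 6.31% and 6.34% of all tested genes. Those that fell take up, release or store fat: Lpl, the lipase that frees fatty acids from lipoproteins (89.6 and 104.6 in Control, 8.58 and 9.38 in Wnt3A, adjusted p 0.0441), Cd36, a fatty acid transporter (2.79 and 4.34 against 0.257 and 0.225, 0.0459), and Plin4, a lipid droplet protein (13.4 and 13.5 against 0.748 and 0.887, 0.0338). For each of them both Wnt3A arrays lay below both Control arrays, which comes from the same values as the call and adds nothing to it. The oxidation lists had no gene past the threshold. The median was -0.55 over 20 other genes listed around peroxisomal beta-oxidation, 15 lower and 5 higher, with 6 lower at an unadjusted p under 0.05. Cat, which breaks down hydrogen peroxide (-1.84 ± 0.34), Scp2, a thiolase and lipid carrier (-1.58 ± 0.30), and Abcd4 (-1.47 ± 0.30) had adjusted p from 0.142 to 0.172 in limma. Over 23 other genes listed around mitochondrial beta-oxidation, whose products are not all mitochondrial, the median was -0.28, 15 lower and 8 higher. The smallest p there belonged to Crat (-1.26), Acot13 (-1.502) and Echdc1 (-0.79).

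Over 29 partners and coregulators of the PPARs the median was 0.081, with 17 higher and 12 lower and 0 called in limma. At an unadjusted p under 0.05 there were 3 higher (10.3%) and 1 lower (3.45%), against 6.31% and 6.34% of all genes. Without overlap 27.6% were higher and 24.1% lower, against 21.5% and 23.7% of all genes. Pparg, the adipogenic PPAR, had the smallest p (17.1 and 27.0 in Control, 3.83 and 2.47 in Wnt3A, -2.79 ± 0.42, adjusted p 0.104 in limma), and the corepressor gene Nrip1 (1.43 ± 0.40) was higher without passing. Over 28 other target genes of the PPARs the median was -0.064, 17 lower and 11 higher, with only Plin4 called. Plin2, a lipid droplet coat protein, was lower (-3.15 ± 0.55, adjusted p 0.133) and Acot1, an acyl-CoA thioesterase, higher (1.11 ± 0.30, 0.254). The median over 20 genes of fatty acid uptake and activation was -0.098, with 11 lower and 9 higher. Pdk4 is known as a PPAR target too, and its direction was opposite to that of Plin4 and Plin2.

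All 12 tested adipocyte markers were lower in Wnt3A (median -2.09), 7 of them at an unadjusted p under 0.05 and 0 called in limma. Among all genes 6.34% were lower at that p. The summed intensity of the 13 markers on the array was 869 and 1080 in Control and 136 and 104 in Wnt3A, and Lep was below the floor on all 4 arrays. Most of that sum was Fabp4, at 723 and 895 against 104 and 69.5. Adipoq read 52.9 and 67.7 in Control and 1.82 and 3.72 in Wnt3A (-4.51 ± 0.46, adjusted p 0.0546 in limma), and Lipe, a lipase of fat stores, differed by -2.40 ± 0.34 (0.0975). The part of these markers in the lower values of the oxidation genes was not tested, and in such bulk samples fewer cells of a type and less RNA per cell cannot be told apart. Pdk4 did not share their direction. The summed intensity of 10 stromal markers was 489 and 744 in Control and 1580 and 1707 in Wnt3A, with 5 higher and 5 lower. Among them Col3a1 (4.27 ± 0.51) and Thbs1 (2.18 ± 0.33) were higher and Pdgfra (-2.25 ± 0.39) lower, with adjusted p from 0.0721 to 0.132 in limma. The sums of 9 blood cell markers were 11.9 and 9.59 against 10.46 and 9.08, with the smallest p for Cd68 (-1.38), Lyz2 (1.27) and Csf1r (0.77). Those of 8 muscle markers were 36.8 and 37.2 against 35.4 and 42.1, with the smallest p for Ckm (1.54), Tnnt2 (-1.43) and Actn2 (-0.79). None of these markers passed.

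**Figure D4:**
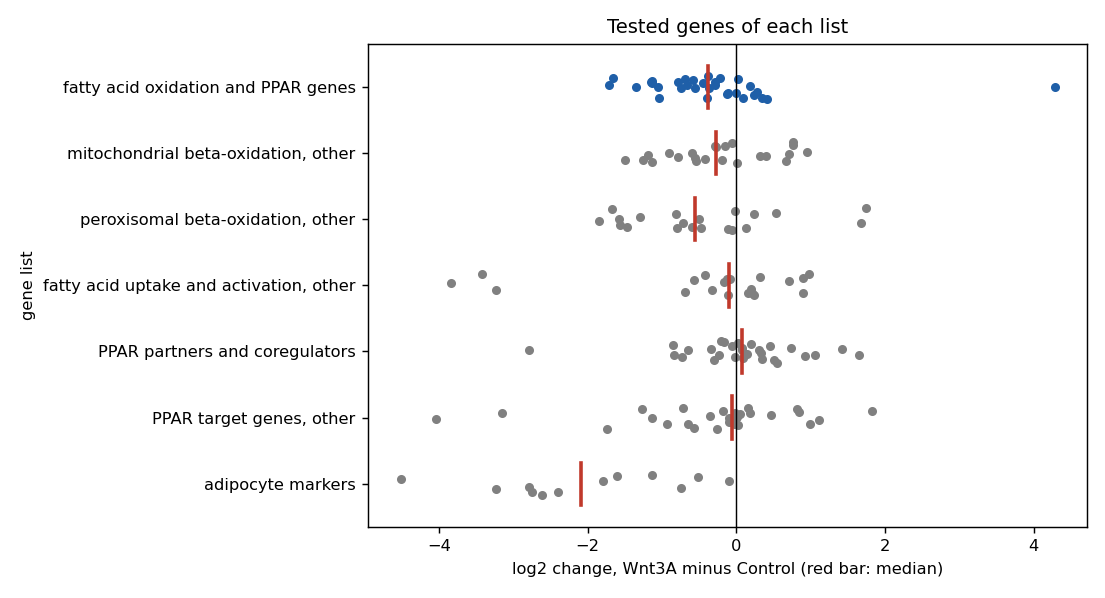
Log2 change (Wnt3A minus Control) of each tested gene of the fatty acid oxidation and PPAR set, of the 5 related lists and of the adipocyte markers, 1 point per gene (vertical scatter within a row has no meaning), with a red bar at each median. The set centres at -0.38 with Pdk4 far to the right, and the adipocyte markers centre at -2.09.

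The scanner files did not give the same directions. On the same probes, 29 members could be tested there, and 17 had the sign they had in the table and 12 the opposite one. None passed in limma, none had an unadjusted p under 0.05, and 0.00963% of all genes passed. Of all genes 53.6% were lower there. Acaa2 (-2.05) and Acadl (-0.85) were lower in both sources, though Acadl was at -0.0011 after normexp and quantile normalization of the scanner signal, whereas Cpt1a (0.060), Acadm (0.42) and Etfa (0.33) were not lower in the scanner files. The scanner file of Control replicate 1 was faint, with 41.8% of spots well above background against 71.6% to 85.7% in the others.

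**Figure D5:**
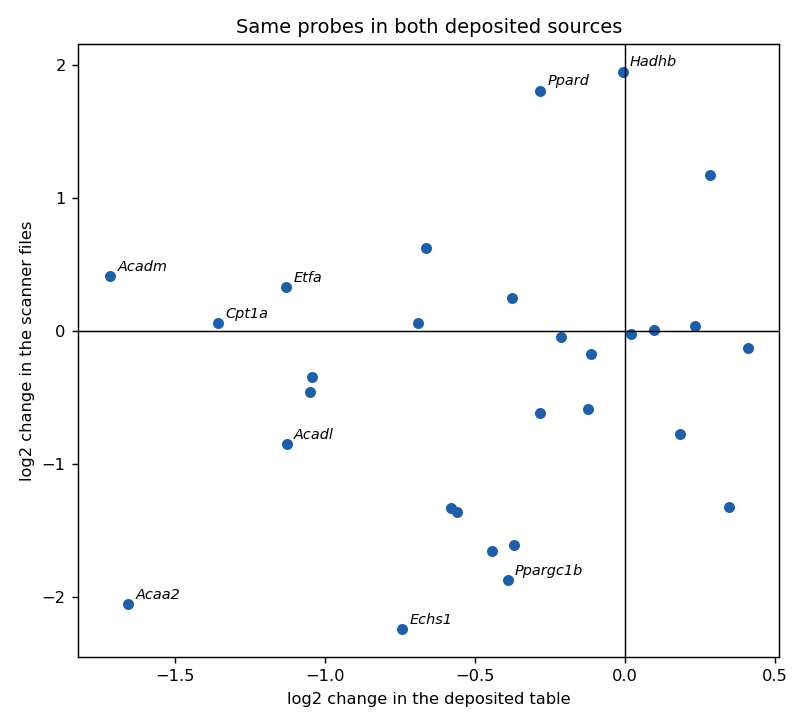
Log2 change (Wnt3A minus Control) of 29 genes in the deposited table (horizontal) and in the scanner files (vertical), 1 point per gene, by the same probe in both. Acaa2 and Acadl are lower in both, and 12 of the 29 points lie on opposite sides of 0.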

How the data were processed

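RNA of 4 samples was measured on 1-colour arrays, 1 array per sample. The deposited table holds a linear intensity per spot with a median of 1 in each column, and how the authors scaled it is not given in the sources used here. The scanner files give raw and background-subtracted intensity per spot, from Agilent Feature Extraction 10.5.1.1 per the file headers, and other flags of 0 or 1 per spot. Their headers place all 4 arrays on 1 slide, so no batch was fitted. Table rows were joined to the scanner annotation by feature number, control spots left out. Probe positions are on mm8.

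Values were taken to log2, each array was centred on its 75th percentile, and the spots of a probe were averaged. A probe was kept if it exceeded an estimated floor on both arrays of either group. The floor was 4.94 times the 1st percentile of each column, a factor taken from the dimmest spot flagged well above background in the scanner files, and it is lenient. Each gene was represented by the kept probe of highest mean. The group comparison used limma 3.58.1 (R 4.3.3; lmFit, then eBayes, two-sided, threshold 0.05, 2 residual and 2.29 prior degrees of freedom), and the fit was tested on simulated data. 95% intervals use the moderated SE.

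Names came from the transcript accession for 24375 probes, from the symbol for 8727, and 8072 kept the file's name. The table was made the main source because an earlier analysis of these files found that the scanner values did not separate the groups. That choice rests on a result and favours a difference between groups. The members and lists were chosen with earlier results of these data known. All members are named, and of each other list the called genes and the 3 with the smallest p, with Pparg in any case, except for results that are not reported here. Lep is named for its absence, chosen after its values were seen. Alternatives covered the source, scaling, filter, probe rule, variance model, replicate block and each array left out.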

Additional observations from a re-analysis of the deposited data

How the results depend on the processing

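Within the table, 18 of the 32 members kept their direction in all 12 alternatives, 15 lower and 3 higher (Pdk4, Acsl3 and Cpt1b). Where the groups do not overlap, leaving out 1 array cannot turn the sign, so this is no sign of stability. Counts of called genes were less stable. Over all genes, 147 were called, against 35 with no filter on dim probes, 34 where every array had to exceed the floor, 226 with the mean of a gene's kept probes and 233 with trend and robust settings. Limma called 0 genes (2162 to 2639 at an unadjusted p under 0.05) with any 1 array left out, and of the scanner values 2 with the processed signal (480 unadjusted) and 0 with normexp (331). Of members 1 was called, against 0 with no filter (7 unadjusted), 0 with any 1 array left out (2 to 8) and 0 and 0 in the scanner fits (0 and 0 unadjusted). Of related genes 3 were called, against 0 with no filter (20 unadjusted), 1 where every array had to exceed it, 0 with any 1 array left out (15 to 21) and 0 in the scanner fits (3 and 4). The median change of the members was -0.38, ran from -0.44 to -0.25 with 1 array left out, and was -0.080 and -0.064 in the scanner fits. The cause of these differences was not tested. Arrays limit the precision by their number.

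Same-numbered arrays did not deviate together (Pearson's r of their deviations 0.012 across 33709 probes), so the replicate numbers were not taken as pairs. With the replicate number as a block in limma, 0 genes were called over all (2737 unadjusted), 0 members (6) and 0 related genes (20), and the adjusted p of Pdk4 was 0.101.

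The direction of 3 members turned when a gene's kept probes were averaged: Hadha (1.41), Acaa1a (-0.070) and Ucp2 (0.15). With 1 array left out, the change ran from -0.33 to 0.70 for Acaa1a, -1.84 to 2.31 for Acads, -1.42 to 0.090 for Acadvl, -0.67 to 0.10 for Acox3, -0.10 to 0.67 for Acsl5, -0.40 to 0.44 for Cpt2, -1.76 to 0.19 for Decr1, -0.41 to 0.17 for Eci2, -1.002 to 0.25 for Hadha, -0.17 to 0.16 for Hadhb, -0.57 to 0.0046 for Ppard, -0.80 to 0.018 for Ppargc1b and -0.91 to 1.101 for Slc25a20. In the scanner fits, each by its own brightest probe, these members had the sign opposite to the table, first with the processed signal and then with normexp: Cpt1a 0.060 and 0.15, Cpt1b -1.32 and -0.79, Acadm 0.42 and 0.32, Acadvl 0.62 and 1.09, Hadha 0.25 and 0.15, Hadhb 1.95 and 1.25, Acaa1a -0.032 and -0.14, Etfa 0.33 and 0.22, Acsl3 -0.13 and -0.047, Ppard 1.81 and 1.48, Ppargc1b 0.85 and 0.77, and Ucp2 1.097 and 0.97. With the processed signal alone Cpt2 (-0.020) and Ppargc1a (0.061) turned, and with normexp alone Slc25a20 (-0.073), Acads (-0.077) and Acsl4 (0.050).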

Other observations

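Several members held readings that 1 probe or 1 array decided. Acads read 1.24 on Wnt3A replicate 1 and 22.5 on Wnt3A replicate 2 by its single probe, and its change was -1.84 without Wnt3A replicate 2 and 2.31 without Wnt3A replicate 1. Hadha had 2 further probes, designed from cDNA records, that were below the floor on both Control arrays. The first read 0.0147 and 0.0136 in Control, below the floor, and 0.216 and 0.0766 in Wnt3A, at least 1.95-fold higher, a bound that falls below 1 with a floor 2 times as high. Its change of 3.20 ± 0.60 had an adjusted p of 0.148 in limma. The second was above the floor on Wnt3A replicate 2 alone (0.184) and was not tested.

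Decr1 read 0.180 and 0.749 in Control by its brightest probe and 0.151 and 0.916 by the other, so Control replicate 2 was the higher Control array by both. Slc25a20 (1.06 and 4.58) and Ehhadh (0.0627 and 1.14) were also higher on Control replicate 2 than on Control replicate 1. No explanation was tested for any of these.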
